A study of Mus musculus with 3 samples.

Results

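Genes for CDK inhibitors, cyclins and the p53 pathway, 10 of the 32285 in the count tables, were compared between untreated mouse colon organoids and those given IFN-γ for 24 h or 48 h. They were taken by symbol and comprise the CDK inhibitors Cdkn1a, Cdkn1b, Cdkn2a and Cdkn2b, the cyclins Ccnd1, Ccnd2, Ccne1 and Ccng1, and the p53 genes Trp53 and Mdm2. Single-cell RNA sequencing (sc-RNAseq) was done on 3 libraries, 1 of untreated organoids, 1 after 24 h and 1 after 48 h of IFN-γ (IFNy in the labels). All 3 were grown from colon crypts in full medium with Wnt, R-spondin, EGF, noggin, the GSK3 inhibitor CHIR-99021 and the TGF-β receptor inhibitor A83-01, and were sorted for live cells; such organoids are epithelial cultures without stroma. Wild-type mice without treatment were named as the source of the organoids, the methods list C57bl/6 beside reporter strains, and sexes and a range of ages are given only for the mice of the whole study. The sources used here do not say which of these mice, or how many, lay behind these libraries. No time is given for the untreated library. Time in IFN-γ therefore cannot be told apart from time in culture or from the library. With 1 library per condition there was no test between conditions, and all 95% intervals cover counting error only. The intervals of levels and ratios treat UMIs (transcript counts) as independent, so they leave out the spread between cells.

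Cells leave G1 when cyclin D with CDK4 or CDK6, and then cyclin E with CDK2, inactivate the retinoblastoma protein and release E2F. The products of Cdkn1a (p21) and Cdkn1b (p27) restrain CDK2 complexes, and those of Cdkn2a (p16, with p19Arf from another reading frame) and Cdkn2b (p15) restrain CDK4 and CDK6. The transcription factor p53 (Trp53) induces Cdkn1a, Ccng1 and Mdm2, and MDM2 in turn targets p53 for degradation. In the colon, cells divide near the crypt base and stop dividing as they move to the surface, where p21 is a known marker of the cells that have stopped.

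The p53 response element of Cdkn1a lay directly before its upstream annotated start. Promoter windows from RefSeq (GRCm38.p6), 250 bases before to 50 bases after a start, were given for 8 of the 10 members, in 10 windows. A p53 full site, 20 letters made of a pair of 10-letter half-sites without spacer, was searched on both strands with at most 1 mismatch outside the C and G core. This form was set after the Cdkn1a sequence had been seen. It occurred in 22 of 32851 windows (0.067%), 2 of them members. In Cdkn1a it stood at −51 to −32 from the start at base 29090979 of chromosome 17, and in Ccng1 at −195 to −176 from the start at base 40755286 of chromosome 11, each with 1 mismatch. The windows of Gtse1, a listed p53 target, and of Rps27l were also among the 22, which belonged to 22 genes. The GC box GGGCGG, present in 35.7% of windows, occurred at −104 to −99 and at −46 to −41 before the downstream Cdkn1a start at base 29093769, and in 7 of the 10 member windows. The CCAAT box CCAAT was in 5 of them and in 37.4% of all windows. An E2F site in the forms TTTCCCGC, TTTCGCGC, TTTGCCGC or TTTGGCGC was in 1, at −99 to −92 from the Cdkn2a start at base 89294619, and in 2.26% of all. These motifs were searched on both strands, and 1 CCAAT box and 1 GC box of Cdkn2a shared bases. The 3 upstream stretches are shown 5′ to 3′ because they carry these elements, with the p53 sites of the first and the last and the GC boxes of the other in capitals. They lie at chr17:29090729-29090978 (plus strand), chr17:29093519-29093768 (plus strand) and chr11:40755287-40755536 (minus strand).
Cdkn1a upstream start: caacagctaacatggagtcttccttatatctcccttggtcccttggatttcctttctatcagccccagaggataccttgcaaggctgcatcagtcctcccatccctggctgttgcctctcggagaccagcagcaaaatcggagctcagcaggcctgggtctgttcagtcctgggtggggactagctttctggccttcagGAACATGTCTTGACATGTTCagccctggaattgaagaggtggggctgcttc
Cdkn1a downstream start: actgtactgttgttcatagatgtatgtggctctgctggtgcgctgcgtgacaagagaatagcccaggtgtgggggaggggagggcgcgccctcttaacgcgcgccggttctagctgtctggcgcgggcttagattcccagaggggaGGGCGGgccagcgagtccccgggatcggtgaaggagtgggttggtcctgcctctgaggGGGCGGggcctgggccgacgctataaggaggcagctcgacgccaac
Ccng1: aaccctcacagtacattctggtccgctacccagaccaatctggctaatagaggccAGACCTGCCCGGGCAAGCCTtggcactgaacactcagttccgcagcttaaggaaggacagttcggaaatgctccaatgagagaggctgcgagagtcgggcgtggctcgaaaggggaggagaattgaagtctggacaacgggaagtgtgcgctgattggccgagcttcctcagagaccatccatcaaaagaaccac
The libraries counted the 3′ ends of transcripts, and 4 of the 5 annotated Cdkn1a transcripts begin their last exon at the same base, 29099344, so the counts do not separate the starts. The same holds for Cdkn2a on chromosome 4, where both annotated transcripts (starts at 89282192 and 89294653) end in 1 last exon up to base 89274774, so p16 and p19Arf messages are counted together.

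Unique molecular identifiers (UMIs) each mark 1 transcript molecule. Cells were kept with 5000 or more UMIs, 400 or more genes and no more than 15% of UMIs from mitochondrial genes. In the order untreated, 24 h and 48 h this gave 1058, 917 and 2934 cells, which held 49801935, 71077817 and 47243500 UMIs at median depths of 33550, 68784 and 10772 UMIs per cell. Of the cell barcodes, 1 to 4 were shared between a pair of libraries. The 8 epithelial markers summed to 5588 to 8337 counts per 1000000 UMIs (CPM) in each library, the 7 immune markers to 2.73 to 3.96 CPM and the 8 stromal and endothelial markers to 0.394 to 1.27 CPM. All 10 listed IFN-γ response genes were at least 2-fold higher at both times. The goblet list (Muc2, Tff3, Spink4 and Fcgbp) summed to 1327 CPM in untreated organoids, 438 CPM at 24 h and 313 CPM at 48 h, and the colonocyte list (Krt20, Slc26a3, Car1 and Aqp8) to 1111, 137 and 95.1 CPM. Most of the colonocyte sum was Car1, at 986, 100.1 and 56.5 CPM, whereas Krt20 alone had 21.6, 27.6 and 26.1 CPM. In sums over a library, fewer cells of a type and less RNA per cell cannot be told apart, and the part of this shift in the pooled values of the members was not tested.

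Over all cells, IFN-γ went with less Cdkn1b and Cdkn2b, more Ccnd1 and Cdkn2a at both times, and more Cdkn1a and Trp53 at 24 h, while their sign at 48 h depended on the setting. Counting a gene as changed when it was at least 2-fold apart, with at least 10 counts over both libraries, no member was higher and 1 was lower (Cdkn2b) at 24 h, where 3.46% of all 17412 genes were higher and 26.0% lower. At 48 h no member was higher and 2 were lower (Cdkn1b and Cdkn2b), where 5.26% of 17376 genes were higher and 16.6% lower. Between 48 h and 24 h no member was 2-fold apart, against 11.6% of genes higher and 2.31% lower. With so wide a background in the lower direction, the count of members was not set apart from that of all genes. The median log2 ratio over all genes was −0.46 at 24 h and −0.18 at 48 h, and that of the 10 members −0.08 and −0.16. Scaling by trimmed mean of M-values (TMM), which centres the bulk of the genes, added 0.45 to each 24 h and 0.19 to each 48 h log2 ratio. It moved the shares of all genes to 7.03% higher and 16.7% lower at 24 h, and to 6.66% and 13.4% at 48 h. Under TMM the only member past 2-fold at 24 h was Ccnd1 (log2 ratio 1.13) in place of Cdkn2b (−0.95).

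**Figure D1:**
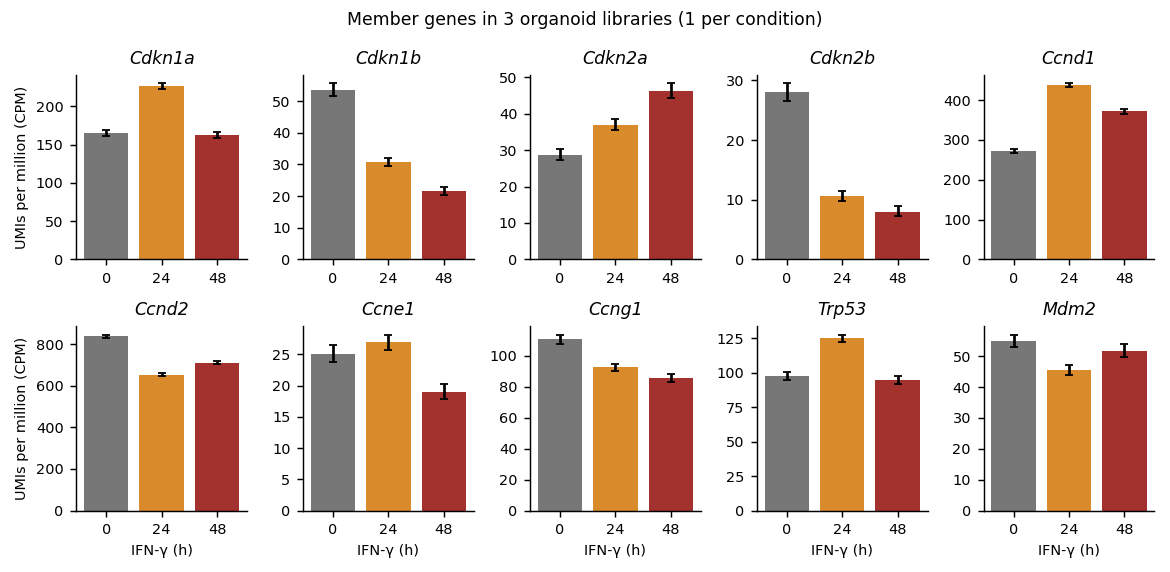
Level of each of the 10 genes in CPM (y axis, from 0, its own scale for each gene) in the untreated library (0) and after 24 h and 48 h of IFN-γ (x axis), with 1 library per bar and 95% Poisson intervals for counting error. Cdkn1b and Cdkn2b were highest in the untreated and lowest in the 48 h library, Cdkn2a was highest at 48 h, and Cdkn1a and Trp53 were highest at 24 h. The untreated library has no stated time, and its 0 stands for no IFN-γ.

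Cdkn1a, the p21 gene on chromosome 17 (29090976 to 29100727, GRCm38), had 165 CPM (95% interval 161 to 169) in untreated organoids, 227 CPM (223 to 230) at 24 h and 163 CPM (159 to 166) at 48 h. The 24 h library was highest, and the untreated and the 48 h library overlapped in their counting intervals. The log2 ratio to untreated was 0.46 (0.42 to 0.50) at 24 h, a 1.37-fold difference at percentile 91.1 of all genes, and −0.02 (−0.07 to 0.02) at 48 h. The 48 h sign turned to 0.17 under TMM and to 0.13 in cells with at least 10000 UMIs. At a common depth of 5000 UMIs per cell, a Cdkn1a UMI was found in 31.9% of the untreated library, 41.9% of the 24 h library and 36.9% of the 48 h library. Without thinning the shares were 64.7%, 79.2% and 56.7%. No cell class without p21 was set as a zero reference for these shares. Of the high S and high G2/M classes defined below, the lower thinned share in each library was 25.1%, 30.6% and 31.6%.

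Cdkn1a was unevenly spread over cells. The 10% of cells with the most thinned Cdkn1a UMIs held 61.5%, 53.4% and 51.4% of them in the 3 libraries. Cells with at least 5 thinned UMIs made up 3.50% (95% interval 2.47 to 4.79) of the untreated, 5.67% (4.26 to 7.37) of the 24 h and 1.53% (1.12 to 2.05) of the 48 h library. In thinned cells, a larger share held a UMI at 48 h than in untreated organoids, but a smaller share held at least 5. Without thinning, the share with a UMI was lower at 48 h (56.7% against 64.7%). Those shares were taken at unlike median depths, 10772 UMIs per cell at 48 h and 33550 in untreated organoids, and are not comparable. The part of free RNA in these shares was not tested.

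Cdkn1b, which encodes the quiescence inhibitor p27 (chromosome 6, 134920401 to 134925513), had 53.5 CPM in untreated organoids, 30.7 CPM at 24 h and 21.6 CPM at 48 h. The log2 ratio was −0.80 (−0.89 to −0.72) at 24 h and −1.31 (−1.42 to −1.21) at 48 h, at percentiles 32.4 and 11.7 of all genes. The intervals of the 3 libraries did not overlap. Thinned shares of cells with a Cdkn1b UMI were 22.7%, 15.5% and 10.5%.

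Cdkn2b, which encodes p15, an inhibitor known as a TGF-β target (chromosome 4, 89306299 to 89311039), went furthest down of the members. It had 28.0 CPM in untreated organoids, 10.6 CPM at 24 h and 8.02 CPM at 48 h, with log2 ratios of −1.40 (−1.53 to −1.27) and −1.80 (−1.97 to −1.64). These are 2.64-fold and 3.49-fold lower values, at percentiles 17.4 and 6.96. A Cdkn2b UMI was found in 11.0%, 6.0% and 3.85% of thinned cells. Its neighbour Cdkn2a (89274471 to 89294653 on the same strand) went the other way, with 28.8 CPM, 37.0 CPM and 46.4 CPM. The Cdkn2a log2 ratio was 0.36 (0.27 to 0.46) at 24 h and 0.69 (0.59 to 0.79) at 48 h, at percentiles 88.7 and 91.8. Both genes kept these directions under all 8 alternative settings.

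Free RNA in the droplets bears on the lower genes of this group. Barcodes with under 2000 UMIs, taken as background, held 31.9 CPM of Cdkn2a in the untreated library, 38.1 CPM at 24 h and 48.8 CPM at 48 h, so cells stood at 0.90 to 0.97 times the background. The deposited counts held no barcode under 1390 (untreated), 851 (24 h) or 1624 UMIs (48 h), so these barcodes need not be empty droplets. For Cdkn1b the cells stood at 1.03 to 1.19 times the background, for Ccne1 at 1.01 to 1.14 times and for Cdkn2b at 1.14 to 1.28 times. Cdkn1a in cells was 1.92 to 2.34 times its background level. In these barcodes Cdkn1b had log2 ratios to untreated of −0.84 and −1.52, and Cdkn2b of −1.52 and −1.97, much like those in cells. Subtracting 5% of the UMIs of the cells as background changed no direction of any member at 24 h or 48 h. The 5% was a set value and was not measured in any library. Where cells stood near the background level, as for Cdkn2a, Cdkn1b, Ccne1 and Cdkn2b, such a subtraction could hardly turn a direction. The part of free RNA in the member ratios was not tested.

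Among the G1 cyclins, Ccnd1 was higher in both treated libraries. Ccnd1 encodes cyclin D1, known as a Wnt target in the gut (chromosome 7, 144929931 to 144939925). It had 272 CPM in untreated organoids, 437 CPM at 24 h and 371 CPM at 48 h, log2 ratios of 0.68 (0.65 to 0.71) and 0.45 (0.41 to 0.48), at percentiles 94.6 and 87.1. The share of thinned cells with a Ccnd1 UMI went from 48.8% to 77.0% and 72.0%. Ccnd2, which encodes cyclin D2 (chromosome 6, 127125162 to 127152193), had 838 CPM, 653 CPM and 710 CPM, with log2 ratios of −0.36 at 24 h, which turned to 0.09 under TMM, and −0.24 at 48 h. Ccne1, which encodes cyclin E1 (chromosome 7, 38097984 to 38107534), had 25.1 CPM, 27.0 CPM and 19.0 CPM. Its log2 ratio was 0.10 (−0.00 to 0.20) at 24 h and −0.40 (−0.53 to −0.28) at 48 h. By CPM the untreated and 24 h libraries were thus within counting error and the 48 h library was lowest. Under TMM the values were 0.55 and −0.22, so the closeness of the untreated and 24 h libraries rested on the scaling.

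Among the p53 genes, the sign of Mdm2 and Ccng1 at 24 h rested on the scaling. Trp53 (chromosome 11, 69580359 to 69591873) had 97.6 CPM in untreated organoids, 125 CPM at 24 h and 94.6 CPM at 48 h. The log2 ratio was 0.36 (0.31 to 0.41) at 24 h and −0.04 (−0.10 to 0.01) at 48 h. The 48 h sign turned in 3 of 8 settings, to 0.14 under TMM. Mdm2, the p53 ubiquitin ligase (chromosome 10, 117688875 to 117710758), had 54.9 CPM, 45.5 CPM and 51.8 CPM, with log2 ratios of −0.27 and −0.08 that turned to 0.17 and 0.10 under TMM. Ccng1, the p53 target cyclin G1 (chromosome 11, 40748552 to 40755311), had 111 CPM, 92.4 CPM and 85.8 CPM, with log2 ratios of −0.26 at 24 h, which turned to 0.19 under TMM, and −0.37 at 48 h. At 24 h Trp53 and Cdkn1a were above untreated, and Mdm2 and Ccng1 were below except under TMM, where each were above.

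**Figure D2:**
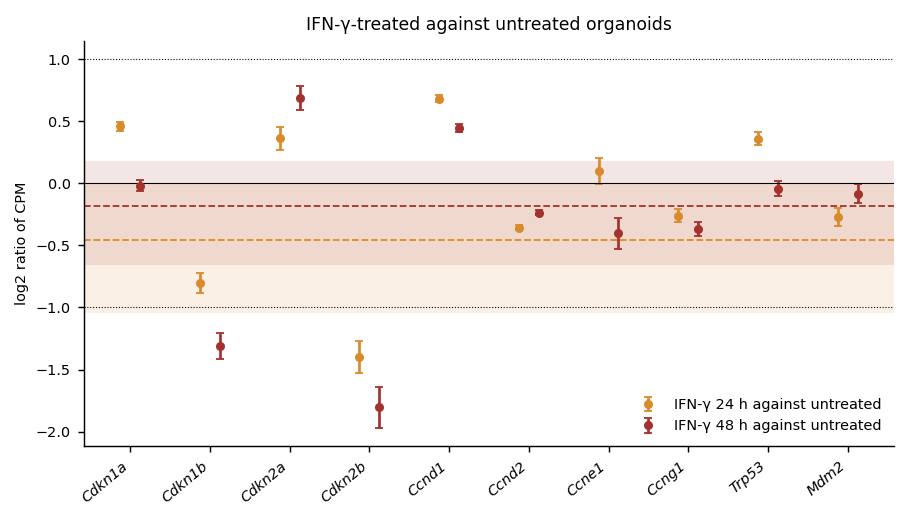
Log2 ratio of CPM to the untreated library (y axis) for each gene at 24 h (orange) and 48 h (red), with 95% counting intervals. Dashed lines give the median of all genes (−0.46 and −0.18), shaded bands their middle 50%, and dotted lines 2-fold; only Cdkn1b and Cdkn2b passed 2-fold, both downward.

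Genes around the members were counted from lists. Of 4 other CDK inhibitors none was 2-fold apart at 24 h, and at 48 h 2 were lower, Cdkn1c (p57), which went from 11.0 CPM to 7.10 CPM and 4.45 CPM (log2 ratio −1.31 at 48 h), and Cdkn2c (p18), which went from 11.2 CPM to 7.54 CPM and 5.44 CPM (−1.05). The median of the 4 was −0.96 at 48 h, against −0.18 over all genes, of which 16.6% were 2-fold lower. None of 7 other G1 cyclins, CDKs and activators (medians 0.10 and 0.07) and none of 7 mitotic cyclins and CDK genes (−0.08 and −0.15) was 2-fold apart at either time. Among 12 Rb and E2F genes 1 was lower at 24 h, the pocket protein gene Rbl2 (21.6 CPM untreated, 10.8 CPM at 24 h, log2 ratio −1.01), and none at 48 h (13.5 CPM). Of 9 measured p53 regulators, only Trp73 was past 2-fold, with 9, 6 and 2 counts, too few to read. These list counts are by CPM. The TMM shift of 0.45 at 24 h would bring Rbl2 and Trp73 to less than 2-fold and Myc (log2 ratio 0.62), a listed G1 gene, past it. That of 0.19 at 48 h would bring Cdkn2c to less than 2-fold.

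Of 26 p53 target genes 1 was 2-fold higher and 2 were 2-fold lower at each time, against 3.46% of all genes higher and 26.0% lower at 24 h, and 5.26% and 16.6% at 48 h. Fas, the death receptor gene, had 3.55 CPM in untreated organoids, 13.2 CPM at 24 h and 14.8 CPM at 48 h, log2 ratios of 1.90 (1.66 to 2.14) and 2.06 (1.82 to 2.30). Fas is known as an interferon-induced gene as well as a p53 target. Btg2, an antiproliferative p53 target, had 72.3 CPM, 27.8 CPM and 20.4 CPM (log2 ratios −1.38 and −1.83). Trp53inp1 was lower at 24 h (22.3 to 9.92 CPM, log2 ratio −1.17) and Ddit4l at 48 h (5.66 to 2.62 CPM, −1.11). These calls are by CPM. The TMM shift of 0.45 at 24 h would bring Btg2 and Trp53inp1 to less than 2-fold. That of 0.19 at 48 h would bring Ddit4l to less than 2-fold and Sesn2 (log2 ratio 0.99) past it. The median of the list was −0.23 at 24 h and −0.08 at 48 h, against −0.46 and −0.18 over all genes. In number, 8 of the 26 were above untreated at 24 h and 12 at 48 h, against 25.1% and 37.2% of all genes.

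**Figure D3:**
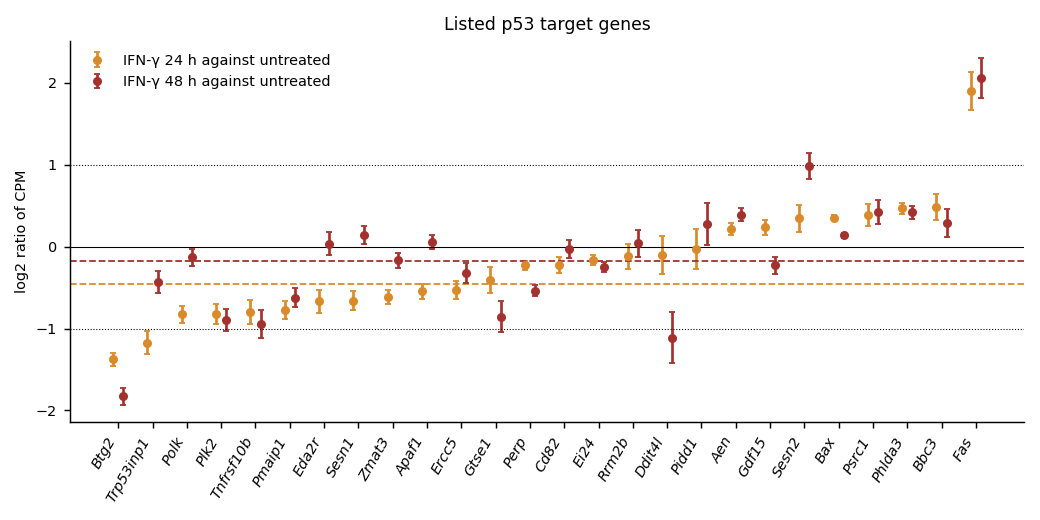
Log2 ratio of CPM to untreated (y axis) for 26 listed p53 target genes, sorted by the 24 h value, at 24 h (orange) and 48 h (red) with 95% counting intervals. Dashed lines mark the medians of all genes and dotted lines 2-fold; Fas stood alone above 2-fold and Btg2 was below at both times.

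To compare cells with more and with less Mki67, a gene of cycling cells, each cell was thinned to 5000 UMIs and classed by its Mki67 UMIs. Cells with at least 2 thinned Mki67 UMIs were Mki67-high (508 untreated, 421 at 24 h, 1408 at 48 h), cells with 0 were Mki67-low (362, 277 and 815), and the 188, 219 and 711 cells with 1 lay at the limit and were left out. Mki67-low is a range, and neither a cell type nor a class of non-dividing cells. At full depth the Mki67-low cells held 1509, 3871 and 1685 Mki67 UMIs in the untreated, 24 h and 48 h libraries. Mki67 itself was 2.88, 1.40 and 2.04 log2 units higher in Mki67-high cells. These Mki67 values include the UMIs that set the classes, a part that differs with depth. They therefore do not rank how well the classes were separated in the libraries. Between the classes 7.85% of 15861 genes were at least 2-fold higher and 8.15% lower in the untreated library, 4.60% and 5.26% in the 24 h library, and 3.79% and 4.66% in the 48 h library. Of the members, Cdkn1a and Cdkn2b were 2-fold lower in untreated Mki67-high cells, and none was 2-fold apart at 24 h or 48 h.

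Cdkn1a was lower in Mki67-high cells of all 3 libraries. It had 114 CPM against 249 CPM without treatment, 171 CPM against 318 CPM at 24 h, and 134 CPM against 207 CPM at 48 h. The log2 ratio of Mki67-high to Mki67-low was −1.13 (−1.20 to −1.06), −0.89 (−0.94 to −0.84) and −0.62 (−0.70 to −0.55). Of cells with a thinned Mki67 UMI, 26.1%, 35.9% and 33.4% also held a Cdkn1a UMI in the 3 libraries, against 43.1%, 55.6% and 46.0% of cells without one. Neither droplets holding a pair of cells nor free RNA were removed, and their part in this overlap was not tested.

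The treated against untreated difference of Cdkn1a was not alike in the Mki67 classes. In Mki67-high cells the log2 ratio was 0.59 (0.53 to 0.66) at 24 h and 0.24 (0.17 to 0.32) at 48 h. In Mki67-low cells it was 0.36 (0.30 to 0.41) at 24 h and −0.27 (−0.34 to −0.20) at 48 h. The pooled 48 h value near 0 lay between these. Trp53 had the reverse pattern at 48 h, −0.13 (−0.22 to −0.05) in Mki67-high and 0.21 (0.09 to 0.33) in Mki67-low cells. The classes were not alike across libraries. Without the TMM shift, Mki67 itself had log2 ratios to untreated of −0.52 and −0.43 in Mki67-high and 0.95 and 0.41 in Mki67-low cells. The part of this in the values of Cdkn1a and Trp53, and the differences between classes, were not tested. With the TMM shift of the pooled libraries added, the 48 h values became 0.43 and −0.08 for Cdkn1a, and 0.05 and 0.40 for Trp53. The Trp53 values then no longer differed in sign. No TMM factor was computed within a class of cells, here or in the classes below.

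**Figure D4:**
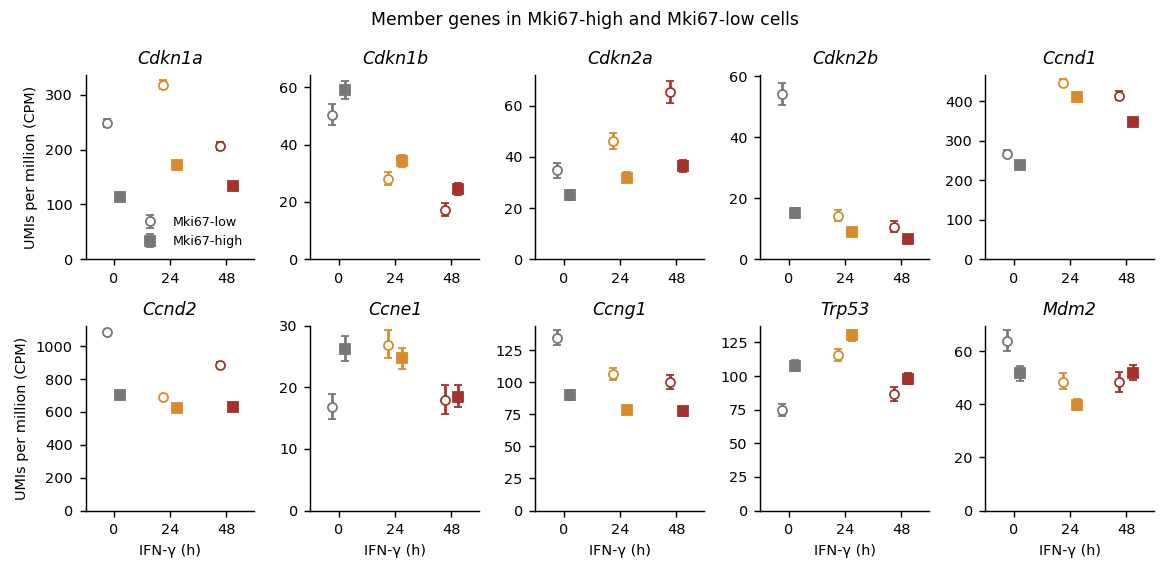
Level of each gene in CPM (y axis, from 0, its own scale for each gene) in Mki67-low cells (open circles) and Mki67-high cells (filled squares) of the untreated (0), 24 h and 48 h libraries (x axis), with 95% Poisson intervals. Cdkn1a, Cdkn2a, Cdkn2b, Ccnd1, Ccnd2 and Ccng1 were lower, and Cdkn1b and Trp53 higher, in Mki67-high cells of every library. In some other settings the sign turned for Cdkn2b at 48 h and for Ccnd1 in untreated and 24 h cells.

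The other inhibitors split by class. Cdkn2b was lower in Mki67-high cells, with log2 ratios of −1.84, −0.68 and −0.66 (0.06 at 48 h where the cells were classed by the G2/M list described below), and so was Cdkn2a, with −0.48, −0.53 and −0.85. Cdkn1b was slightly higher in Mki67-high cells of each library, 0.23, 0.29 and 0.50. In untreated Mki67-low cells Cdkn2b had 54.1 CPM, and it had 14.3 CPM at 24 h and 10.6 CPM at 48 h, log2 ratios of −1.92 (−2.12 to −1.73) and −2.35 (−2.63 to −2.09). In Mki67-high cells it had 15.1 CPM, 8.92 CPM and 6.68 CPM (−0.76 and −1.18). The difference was larger in Mki67-low cells, where the untreated level was higher. Mki67 in those cells was itself 97.5 CPM untreated, 189 CPM at 24 h and 129 CPM at 48 h. Cdkn1b was lower after IFN-γ in both classes, by log2 ratios of −0.79 and −1.27 in Mki67-high and −0.85 and −1.54 in Mki67-low cells.

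Of the cyclins, Ccnd1 differed little between the classes (−0.16, −0.12 and −0.25), with a sign that turned in 2 of 6 settings in untreated cells and in 1 of 6 at 24 h. It was higher after IFN-γ in both, with log2 ratios of 0.79 and 0.54 in Mki67-high and 0.74 and 0.63 in Mki67-low cells. Ccnd2 was lower in Mki67-high cells (−0.62, −0.15 and −0.49), as was the p53 target Ccng1 (−0.59, −0.44 and −0.37). Trp53 was higher in Mki67-high cells (0.53, 0.17 and 0.18). Mdm2 was lower in untreated and 24 h Mki67-high cells (−0.31 and −0.28, the latter 0.03 with another thinning seed) and within counting error at 48 h (0.10, −0.04 to 0.24). Ccne1 was 0.64 higher in untreated Mki67-high cells and within counting error of 0 at 24 h and 48 h, but these values rested on the setting. The sign turned in 2 of 6 settings in untreated and 24 h cells and in 4 of 6 at 48 h, and with the G2/M list as the classes the 3 values were −0.76, −1.23 and −1.09.

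Cyclin E1 is known to peak at the G1/S transition, and its levels lay further apart between classes by phase lists than between Mki67 classes. Thinned UMIs were summed over 25 S-phase and 40 G2/M genes. The upper 25% by G2/M sum formed one class (high G2/M), the upper 25% by S sum outside it another (high S), and cells at or under both medians the last (low). Ccne1 had 65.6 CPM in high S cells, 13.0 CPM in high G2/M cells and 7.92 CPM in low cells of the untreated library. At 24 h it had 49.4, 14.8 and 22.4 CPM, and at 48 h 37.4, 11.2 and 14.2 CPM. High S cells were highest in every library, by log2 ratios to low cells of 3.05 (2.76 to 3.36), 1.14 (0.95 to 1.34) and 1.40 (1.12 to 1.68), so the contrast was wider without IFN-γ. In low cells Ccne1 was above its untreated level at both times, and in high S cells below it, with log2 ratios of −0.41 at 24 h and −0.81 at 48 h. The TMM shift of 0.45 at 24 h is larger than the 24 h difference in high S cells, so that direction rested on the scaling. The 48 h shift of 0.19 is smaller than the 48 h difference there. Background barcodes held 22.1, 26.7 and 18.6 CPM, so low cells were below the background at each time.

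By CPM, Cdkn1a was lowest in high S cells. It had 100.4 CPM there in untreated organoids, 144 CPM at 24 h and 116 CPM at 48 h, against 289, 431 and 246 CPM in low cells and 131, 158 and 142 CPM in high G2/M cells. The log2 ratio of high S to low cells was −1.52, −1.58 and −1.08. By thinned shares the high S and high G2/M classes were within counting error. Shares with a Cdkn1a UMI were 25.4%, 30.6% and 32.4% in high S and 25.1%, 30.8% and 31.6% in high G2/M cells. Cdkn2b had 9.39, 4.87 and 7.0 CPM in high S cells against 61.6, 19.8 and 10.5 CPM in low cells. The libraries thus lay furthest apart in low cells, which were not alike across libraries in Mki67. Trp53 was higher in high S than in low cells, with 131, 140 and 113 CPM against 59.7, 95.1 and 74.1 CPM in low cells.

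**Figure D5:**
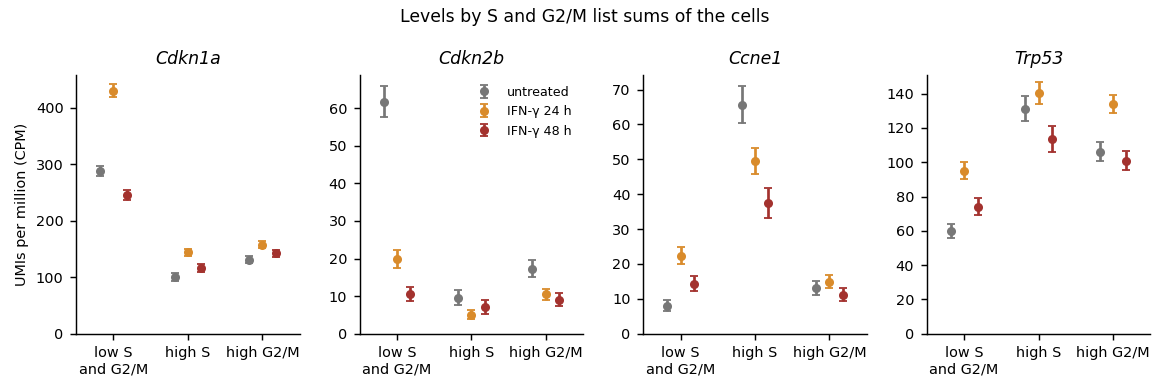
Level in CPM (y axis, from 0, its own scale for each gene) of Cdkn1a, Cdkn2b, Ccne1 and Trp53 in cells low for both phase lists, high for the S list or high for the G2/M list (x axis), in the untreated (grey), 24 h (orange) and 48 h (red) libraries, with 95% Poisson intervals. Cdkn1a was highest in low cells and Ccne1 in high S cells of every library; Cdkn2b was highest in low cells of the untreated and 24 h libraries, its low and high G2/M cells at 48 h were within counting error, and its level in low cells went from 61.6 to 19.8 and 10.5 CPM.

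Krt20 marks differentiated colonocytes, but the share of cells with a Krt20 UMI was small, and the background barcodes also held Krt20. Krt20 had 10.9, 22.0 and 7.44 CPM in the background barcodes, against 21.6, 27.6 and 26.1 CPM in cells. The shares of thinned cells with a Krt20 UMI were 4.54%, 5.56% and 3.85% in the 3 libraries, where cells holding background alone would give 5.29%, 10.4% and 3.65%. Those reference shares take all UMIs of a thinned cell as background. A gene held by few cells can lie under such a share and still be expressed in them. The comparison of shares therefore does not decide whether the cells with a Krt20 UMI expressed Krt20, and how much of these UMIs was free RNA was not tested. The 48, 51 and 113 cells with a UMI are described only as such. Ccnd1 had 44.6 CPM (95% interval 35.3 to 55.5) in them without treatment, 341 CPM at 24 h and 334 CPM at 48 h. The log2 ratio was 2.94 (2.61 to 3.28) at 24 h and 2.90 (2.57 to 3.26) at 48 h, against 0.65 and 0.41 in cells without a Krt20 UMI. In untreated organoids these cells held less Ccnd1 than the background barcodes (167 CPM), and after IFN-γ more (278 and 243 CPM in background). Ccnd2 had 451, 862 and 1101 CPM, log2 ratios of 0.93 and 1.29, while cells without a Krt20 UMI had −0.41 and −0.30 (0.04 and −0.11 with the TMM shift added). Trp53 had 19.5, 66.7 and 56.0 CPM (1.77 and 1.52).

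The inhibitors in the same cells had other values. Cdkn2b had 138 CPM in untreated cells with a Krt20 UMI, 23.4 CPM at 24 h and 21.1 CPM at 48 h, log2 ratios of −2.56 (−2.95 to −2.18) and −2.71 (−3.23 to −2.22). Cdkn1b had log2 ratios of −1.18 and −1.75, and Cdkn2a of −0.62 and −0.50 (−0.17 and −0.31 with the TMM shift added), below untreated where the pooled Cdkn2a was above. Cdkn1a stood at 576, 600 and 426 CPM, 1.94, 1.52 and 1.49 log2 units above cells without a Krt20 UMI, with log2 ratios of 0.06 and −0.43 (0.51 and −0.25 with the TMM shift added). Mki67 was 108, 278 and 183 CPM. In the cells with a Krt20 UMI that were also Mki67-low (38, 21 and 70 cells) Ccnd1 had 44.7, 306 and 311 CPM, and Cdkn2b 149, 26.9 and 21.9 CPM. With at least 2 Krt20 UMIs, a limit set after seeing the data that left 24, 22 and 57 cells, Ccnd1 had 15.7, 226 and 326 CPM (log2 ratios 3.85 and 4.38) and Cdkn2b 157, 39.7 and 36.6 CPM (−1.98 and −2.10). Cells joined by a Krt20 UMI need not be of 1 kind in the 3 libraries, and the part of free RNA in their values was not tested.

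Over cells within a library, Cdkn1a varied together with galectin, S100 and keratin genes. Pearson's r of thinned log counts was computed against 5905 genes found in at least 10% of cells of each library. It is a description over cells that share a library and its depth. The highest mean r over the 3 libraries were with Lgals3 (0.36), S100a6 (0.32), Krt19 (0.32), Krt8 (0.32) and Actb (0.28). Cdkn1a was also the closest partner of Ccng1 (0.22, with 0.23, 0.28 and 0.17 in the single libraries), followed by Phlda3 (0.22), another p53 target, and S100a6 (0.21). The closest partner of Ccnd2 was Ccnd1 (0.24). For Ccnd1 the closest were Hsp90ab1 (0.25), a chaperone gene, Ybx1 (0.24) and Rps2 (0.24), and for Cdkn1b, Cdkn2a, Trp53 and Mdm2 no gene reached 0.2. In sparse counts such values are small by construction, and Cdkn2b and Ccne1 were too rare to be compared.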

How the data were processed

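The members and gene lists were chosen with earlier results of these data known. The authors built 3′ v3 libraries (10x Genomics) and deposited UMI counts per gene and barcode, without normalization. The submitters' processing notes name Cell Ranger 6.0.1 and mm10. The annotation release is not given in the sources used here. Gene positions come from GENCODE vM21 (GRCm38), whose identifiers matched the files for all 10 members. The filter on cells follows the study's methods. Counts were summed over filtered cells and scaled to 1000000 (CPM). Log2 ratios have exact conditional binomial intervals, levels exact Poisson intervals and shares Clopper-Pearson intervals. The ratio intervals were checked on pooled counts simulated without spread between cells. The level and share intervals were not checked in this way. Cells were thinned without replacement with a fixed random seed. No doublet caller was run. TMM factors came from edgeR (4.0.16) in R (4.3.3), other steps from Python (3.11.15), scipy (1.17.1) and pandas (2.3.3). All members are named, as are genes of the related lists past 2-fold (up to 4 in each direction at 24 h and up to 4 at 48 h) and the closest co-expressed genes with a mean r of at least 0.2 (5 for Cdkn1a, 3 for others). Gtse1 and Rps27l were named after their windows were seen. Alternatives covered scaling, depth and mitochondrial filters, per-cell means, thinning, the deepest cells, free RNA and the class limits, with the limit of 2 Krt20 UMIs added after the data were seen. The result of 1 motif search is not reported here.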

Additional observations from a re-analysis of the deposited data

Results flagged for a closer look

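At 48 h the comparison with untreated cells went in opposite directions in the Mki67 classes for a pair of members, with counting intervals that left out 0 on each side. These intervals leave out the spread between cells and are therefore too narrow for it. Thinned Cdkn1a counts per cell had a variance of 3.25, 3.49 and 2.07 times their mean in the untreated, 24 h and 48 h libraries. The log2 ratio of Cdkn1a was 0.24 in Mki67-high and −0.27 in Mki67-low cells. That of Trp53 was −0.13 in Mki67-high and 0.21 in Mki67-low cells. With the TMM shift of the pooled libraries added, these log2 ratios became 0.43 and −0.08 for Cdkn1a, and 0.05 and 0.40 for Trp53. Mki67 itself had 48 h log2 ratios to untreated of −0.43 in Mki67-high and 0.41 in Mki67-low cells without the TMM shift. The classes were thus not alike in the libraries, and the part of this was not tested. The difference between the classes was not tested, as each condition had 1 library.

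Barcodes with under 2000 UMIs, which no comparison of the report used as cells, also held more of some members in the treated libraries than in the untreated one. The log2 ratio was 0.21 for Cdkn1a at 24 h, 0.26 and 0.61 for Cdkn2a at 24 h and 48 h, 0.73 and 0.54 for Ccnd1 at 24 h and 48 h, and 0.27 for Ccne1 at 24 h. Others were lower there as in cells, Cdkn1b by log2 ratios of −0.84 and −1.52 and Cdkn2b by −1.52 and −1.97, against −0.80 and −1.31, and −1.40 and −1.80, in cells.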

How the results depend on the processing

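With 1 library per condition, counting error is the only error measured, and 48 h cells were the shallowest. No paired analysis was possible because each condition had 1 library. Across 8 settings, 14 of 20 member ratios to untreated kept their sign, and 22 of 30 class ratios did so across 6 settings. The number of members past 2-fold stayed at 1 at 24 h and at 2 at 48 h in every setting, though under TMM the 24 h member was Ccnd1 in place of Cdkn2b. The Cdkn1a log2 ratio at 24 h (0.46) was 0.90 under TMM, 0.50 with at least 2000 UMIs, 0.39 with at most 10% mitochondrial UMIs, 0.54 as a mean over cells, 0.52 in thinned cells and 0.32 without the top 5% of cells by UMIs. At 48 h (−0.02) it was 0.17 under TMM, −0.12 with at least 2000 UMIs, 0.13 with at least 10000 UMIs, −0.0933 as a mean over cells, −0.16 in thinned cells and −0.0768 without the top 5%. The Mki67-high to Mki67-low log2 ratio of Cdkn1a was −0.97 (untreated), −0.75 (24 h) and −0.50 (48 h) with 1 UMI as the limit, −0.82 (untreated) and −0.999 (24 h) at full depth, −0.79, −0.83 and −0.38 by the G2/M list, −1.34, −1.08 and −0.82 as a mean over cells, −1.29 (untreated) and −0.77 (48 h) without the top 5%, and −0.82 (24 h) with another thinning seed. The cause of these shifts was not tested.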
